A study of Homo sapiens with 24 samples.

Results

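The genes described here encode mitochondrial ribosomal proteins, and they were taken by symbol: MRPL or MRPS followed by a number. In all, 77 of 18154 genes carried such a symbol, 48 of them MRPL and 29 MRPS. All 77 were measured in the MYC knockdown and in the KJ-PYR-9 experiment. In the MB-3 experiment 75 were measured, and MRPL38 and MRPL46 were not analysed here. Every member measured passed the filter on low values, a mean of at least 10 normalized counts over the libraries fitted. The mean level per member ran from 64.02 (MRPL46) to 2003 (MRPL37) normalized counts in the KJ-PYR-9 experiment.

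Mitochondria hold ribosomes of their own, which translate the few proteins that mitochondrial DNA encodes, all of them parts of the respiratory chain and ATP synthase. The ribosomal RNAs come from mitochondrial DNA, whereas every protein of this ribosome is encoded in the nucleus, made in the cytosol and imported. The large subunit carries the peptidyl transferase centre and the small subunit binds the messenger RNA and decodes it. Many of the proteins have counterparts in bacterial ribosomes, and the others are particular to mitochondria. MYC is a transcription factor known to raise genes of ribosome and mitochondrial biogenesis, which is why these genes are of interest in a study of MYC inhibition. MRPL and MRPS name the large and small subunit, with exceptions: the MRPS18A and MRPS30 proteins sit in the large subunit, and MRPS36 is now counted as a part of a metabolic enzyme complex. By structure, 50 members belong to the large subunit and 26 to the small.

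RNA was sequenced from 24 libraries of BT549, a triple negative breast cancer cell line of wild type genotype by its labels, in 8 groups of 3. In the knockdown, cells received control siRNA (siCtl) or a pool of siRNAs against MYC (siMYC) for 72 h. In the inhibitor experiment, cells received vehicle (VEH), DEX, KJ-PYR-9 at 40 µM for 3 h, or KJ-PYR-9+DEX. KJ-PYR-9 is a small molecule made to keep MYC from pairing with its partner MAX. The labels spell out neither what DEX is nor its dose and time. In the third experiment, cells received vehicle (VEH2) or MB-3 (group MB3), an inhibitor of the histone acetyltransferase GCN5 that the gene KAT2A encodes, at 100 µM for 3 h. Replicates are labelled as biological. The title of 1 MB3 library, MB3 1, reads MED3, and its treatment field reads MB3.

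Values were normalized counts, scaled by the authors within each of the 3 experiments, so levels were compared only within an experiment. Knockdown libraries held between 18.77 and 24.15 M reads each, those with KJ-PYR-9, DEX or their vehicle between 5.582 and 30.76 M, and those of the MB-3 experiment between 8.306 and 19.96 M. Reads of features with no gene name made up 26.04% of the shallowest library, DEX 1, 8.722% of KJ-PYR-9+DEX 3 and 5.445% of KJ-PYR-9 3. The 7 mesenchymal genes that mark BT549, VIM and FN1 among them, summed to between 45031 and 122425 normalized counts per library. For the luminal and hormone receptor genes measured, the sum was 878 to 1374 in the knockdown (3 of 7 genes). It was 284 to 597 in the inhibitor experiment (5 of 7) and 164 to 201 in the MB-3 experiment (1 of 7). ESR1 and EPCAM were not among the genes analysed here. MYC stood at 2313, 2269 and 2138 in the siCtl libraries and at 1655, 1789 and 1710 in the siMYC libraries, a log2 difference of -0.38 (SE 0.11) that missed the threshold (limma adjusted p = 0.0587). MYC transcript was higher with KJ-PYR-9 (log2 2.48, SE 0.209, limma adjusted p = 6.38e-05) and with DEX (log2 3.4, SE 0.209, limma adjusted p = 4.07e-06) than with VEH. With KJ-PYR-9+DEX the MYC transcript stood at 4304.5, 3665.6 and 4510.3, lower than with DEX alone (19573, 16916 and 18783). A transcript level does not measure the activity of the MYC protein.

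The first comparison asked what MYC knockdown did to the mitochondrial ribosome. Most members lay lower in the siMYC libraries. With limma on log2(normalized count + 1), Benjamini-Hochberg adjustment over all genes tested and a threshold of 0.05, 6 of 77 members were called, against 16.1% of all genes tested. MRPL42, MRPL24, MRPS2, MRPS25 and MRPS30 fell and MRPL17 rose. Of all genes tested, 4.78% were called lower and 11.4% higher. Below zero lay 60 of 77 members, against 45.7% of all genes. The siMYC libraries all lay below the controls for 23 members and all above them for 5, against 17.1% and 26.6% of all genes. On the recovered reads edgeR called 17 members, against 19.8% of all genes, and DESeq2 called 20, with its share of all genes not given. The median log2 difference was -0.17 over the members and 0.05 over all genes. Summed mesenchymal genes were higher in siMYC (99555 to 122425 normalized counts) than in siCtl libraries (70307 to 83229), and 6 of the 7 lay above zero. The 3 of 7 luminal genes measured also summed higher (1157 to 1374 against 878 to 1060), as did the 3 of 6 leukocyte genes measured (75 to 95 against 40 to 62). In each of these lists 1 gene lay below zero, ZEB1 at -0.54 among the mesenchymal genes. The part of these markers in the result was not tested. In bulk RNA, a lower level in every cell and a loss in some cells cannot be told apart.

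MRPL42, a large subunit protein with no bacterial counterpart, showed the largest fall. Its normalized counts were 1733, 1864 and 2316 in siCtl and 1058, 957 and 738 in siMYC, a log2 difference of -1.11 (SE 0.185, limma adjusted p = 0.0164). Every siMYC library lay well under the lowest control. MRPL24, a large subunit protein with a bacterial counterpart, stood at 804, 782 and 882 in siCtl and at 522, 653 and 459 in siMYC (log2 -0.61, SE 0.16, limma adjusted p = 0.0475). The groups did not overlap, and siMYC 2 came closest to the controls. MRPL17, another large subunit protein of bacterial ancestry, was the exception in direction, with 630, 609 and 637 in siCtl and 986, 933 and 1046 in siMYC (log2 0.66, SE 0.111, limma adjusted p = 0.0166). The 3 controls were close together and all siMYC libraries stood far above them.

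Among the MRPS symbols, MRPS2, a small subunit protein of bacterial ancestry, measured 1360, 1471 and 1677 in siCtl and 879, 1036 and 807 in siMYC (log2 -0.73, SE 0.148, limma adjusted p = 0.0261). MRPS25, a mitochondria-specific protein of the small subunit, measured 1364, 1261 and 1295 in siCtl and 795, 841 and 834 in siMYC (log2 -0.66, SE 0.108, limma adjusted p = 0.0155). MRPS30, which sits in the large subunit despite its symbol, measured 1526, 1499 and 1811 in siCtl and 1112, 1000 and 974 in siMYC (log2 -0.64, SE 0.131, limma adjusted p = 0.0263). In all 3 genes the highest siMYC library stayed under the lowest control. With trends over GC content and exon length removed from each library, MRPL17, MRPL24, MRPS2 and MRPS25 kept their calls, whereas MRPS30 stood at -0.20 (limma adjusted p = 0.467) and MRPL42 at -0.69 (limma adjusted p = 0.0918). Before removal the members' differences followed GC content less than those of all genes (Spearman's rho 0.176 against 0.401). After removal the members had the reverse order (-0.458 against -0.024), so this correction left a GC trend of its own in them. Calls kept or lost here are to be read with that limit.

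No other member was called, although MRPL1 had a log2 difference of -0.66 (limma adjusted p = 0.113, overlapping groups; named after its value was seen), as large as some of those called. MRPL12, which forms the stalk that recruits translation factors, had 328, 300 and 393 in siCtl and 232, 297 and 195 in siMYC (log2 -0.51, SE 0.192, limma adjusted p = 0.111). Its groups did not overlap, yet siMYC 2 all but reached the lowest control. MRPS12, part of the decoding site, MRPS18B and MRPS18C had log2 differences of -0.18, -0.20 and -0.01, and MRPL36, MRPS18A and MRPL44 had -0.06, 0.05 and 0.28, none of them called.

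The lower levels were uneven across the siMYC libraries. Relative to the mean of the controls, the median member stood at -0.17 on the log2 scale in siMYC 1, at 0.03 in siMYC 2 and at -0.34 in siMYC 3, while the 3 controls lay between -0.06 and 0.11. All reads of members together made up 0.294% to 0.339% of the reads in siCtl libraries and 0.254%, 0.29% and 0.227% in siMYC 1, 2 and 3. The siMYC 2 library was thus close to the controls and siMYC 3 was the farthest from them. Leaving out siMYC 2 moved the median member to -0.27 and leaving out siMYC 3 moved it to -0.06. No member was called without siMYC 3, siCtl 2 or siCtl 3, and 1 was called without siCtl 1. TMM scaling gave a median of -0.23 for the members and -0.02 for all genes, and 12 calls, 11 of them lower. The share of all genes called with TMM is not given, so these counts do not set the members apart.

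**Figure D1:**
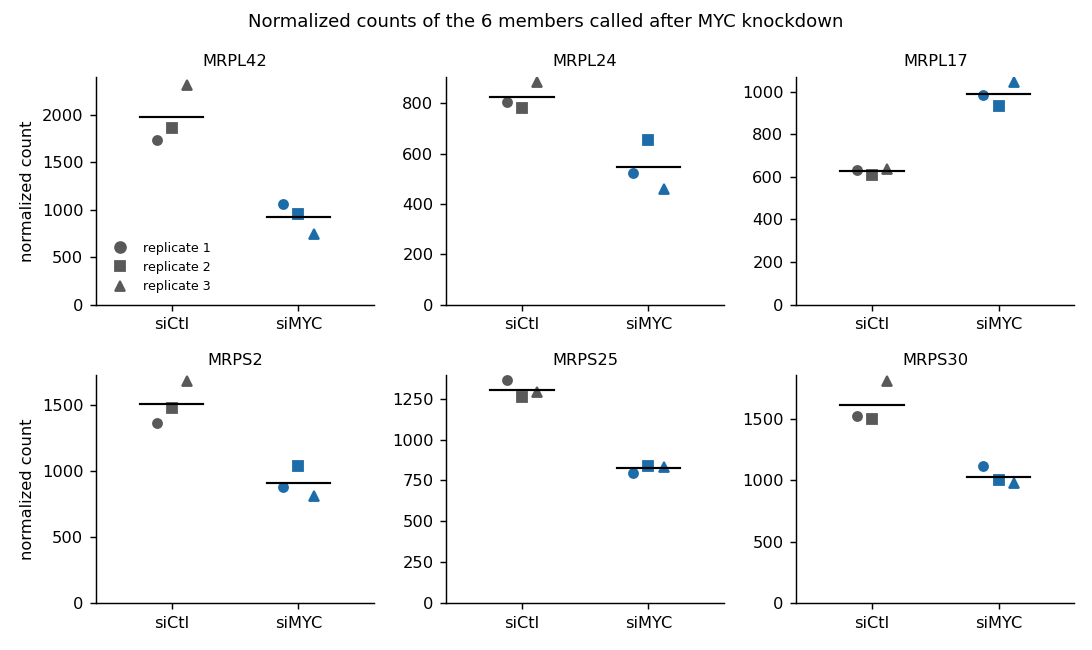
Normalized counts (vertical axis, from 0) of the 6 members called in the knockdown, by library; marker shapes give the replicate number and lines the group means. MRPL17 was higher in the 3 siMYC libraries, and the other 5 genes were lower in all 3 with no overlap.

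Genes that build or serve the mitochondrial ribosome were described from lists of fixed membership, to be read against the 4.78% of all genes called lower and 11.4% called higher. Of 17 mitochondrial translation factors, 4 fell and none rose, with a list median of -0.28. MRRF, the factor that recycles ribosomes after termination, fell by 0.71 on the log2 scale, and the release factor MTRF1 fell by 0.60. Of 20 mitochondrial aminoacyl-tRNA synthetase genes, which charge tRNAs with amino acids, 3 fell and none rose, MARS2 by 0.93, NARS2 by 0.68 and WARS2 by 0.54. Of 28 genes for ribosome assembly and rRNA modification 1 fell, RBFA, a maturation factor of the small subunit, by 0.57. Of 15 genes for mitochondrial DNA maintenance and transcription, the helicase TWNK fell by 0.71 and the RNA-degrading enzyme PNPT1 rose by 1.63. PPARGC1B, a coactivator of mitochondrial genes, fell by 0.94 and was the only call among 9 regulators. The 5 ribosomal proteins with other symbols held 1 call, PTCD3, which fell by 0.53.

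KJ-PYR-9 had a different profile: the set did not shift as a whole but spread in both directions. Against VEH, 27 of 77 members were called, 16 higher and 11 lower, against 42.9% of all genes tested. The shares called among all genes were 25.4% higher and 17.5% lower. The median log2 difference was -0.00 over the members and 0.06 over all genes, with members running from -1.26 (MRPS6) to 1.44 (MRPL55). Replicates of this experiment shared their number across groups, and with that number as a block 46 members were called, 24 higher and 22 lower, against 58% of all genes (32.2% higher and 25.8% lower). The mesenchymal genes summed to 62847 to 63683 normalized counts in KJ-PYR-9 and to 45031 to 48477 in VEH, the luminal genes to 569 to 597 and 378 to 547, and the leukocyte genes to 40 to 70 and 22 to 39, and their part in the result was not tested. The 27 calls became 16 without VEH 1 and 17 without KJ-PYR-9 3.

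Among the large subunit genes that rose, MRPL55, which encodes a mitochondria-specific protein, had 366, 384 and 450 normalized counts in VEH and 939, 1102 and 1229 in KJ-PYR-9 (log2 1.44, SE 0.233, limma adjusted p = 0.00194). The lowest treated library lay far above the highest vehicle library. MRPL43, also mitochondria-specific, had 579, 617 and 647 in VEH and 1143, 1321 and 1423 in KJ-PYR-9 (log2 1.07, SE 0.171, limma adjusted p = 0.00186). MRPL4, a large subunit protein of bacterial ancestry, had 622, 795 and 746 in VEH and 1248, 1384 and 1535 in KJ-PYR-9 (log2 0.95, SE 0.184, limma adjusted p = 0.00358). For both genes all treated libraries stood clear of the vehicle libraries. MRPL23, which lies near the exit of the peptide tunnel, had 412, 486 and 485 in VEH and 839, 972 and 875 in KJ-PYR-9 (log2 0.96, SE 0.125, limma adjusted p = 0.000745), again with no overlap. MRPL17 and MRPL10 rose by 0.89 and 0.70 on the log2 scale, and MRPL41, MRPL2, MRPL28, MRPL27 and MRPL57 by 0.79, 0.64, 0.50, 0.48 and 0.41.

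Small subunit genes rose too. MRPS34, a mitochondria-specific protein, had 883, 974 and 835 in VEH and 1579, 1851 and 1646 in KJ-PYR-9 (log2 0.91, SE 0.196, limma adjusted p = 0.00539). MRPS2 had 1075, 1323 and 1122 in VEH and 1874, 2177 and 2208 in KJ-PYR-9 (log2 0.83, SE 0.159, limma adjusted p = 0.00342). MRPS12 had 765, 979 and 872 in VEH and 1324, 1483 and 1331 in KJ-PYR-9 (log2 0.67, SE 0.136, limma adjusted p = 0.00443). In these genes the VEH and KJ-PYR-9 libraries formed separate ranges. MRPS26 and MRPS11 rose by 0.79 and 0.54.

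MRPL41, MRPL2, MRPL28, MRPL27 and MRPL57 above, and the falling members here other than MRPS17, were named after their values were seen. MRPL19, a large subunit protein of bacterial ancestry, had 313, 390 and 258 in VEH and 149, 162 and 105 in KJ-PYR-9 (log2 -1.21, SE 0.306, limma adjusted p = 0.0107). MRPL33, another, had 218, 253 and 173 in VEH and 102, 123 and 66.5 in KJ-PYR-9 (log2 -1.17, SE 0.287, limma adjusted p = 0.00943). MRPL42 had 696, 827 and 552 in VEH and 324, 395 and 235 in KJ-PYR-9 (log2 -1.13, SE 0.316, limma adjusted p = 0.0163). In all 3 genes replicate 2 was the highest and replicate 3 the lowest of both groups, and the groups did not overlap. MRPS6, a small subunit protein of bacterial ancestry, had 777, 416 and 405 in VEH and 188, 235 and 216 in KJ-PYR-9 (log2 -1.26, SE 0.37, limma adjusted p = 0.0201), with VEH 1 far above the other vehicle libraries. MRPS10, a small subunit protein of the head, had 298, 353 and 291 in VEH and 173, 184 and 133 in KJ-PYR-9 (log2 -0.95, SE 0.289, limma adjusted p = 0.0232). MRPL13, MRPL50, MRPL15 and MRPL3 fell by 0.90, 0.87, 0.71 and 0.69, and MRPS17 and MRPS9 by 0.71 and 0.64.

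**Figure D2:**
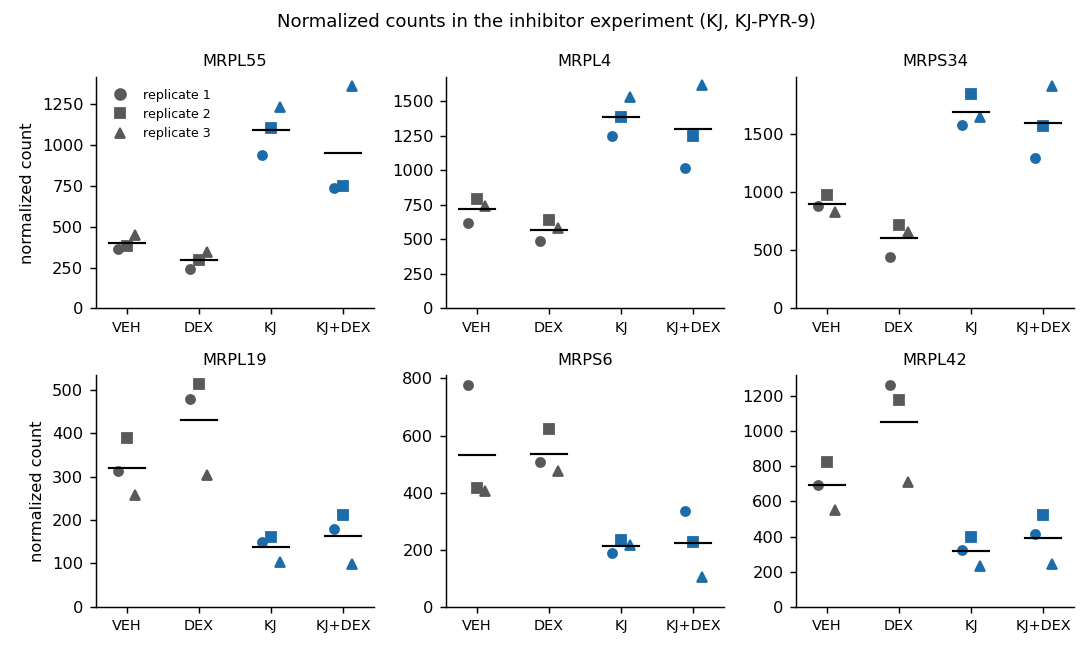
Normalized counts (vertical axes, from 0) of 3 members that were higher and 3 that were lower with KJ-PYR-9, by library of the inhibitor experiment; marker shapes give the replicate number and lines the group means. MRPL55, MRPL4 and MRPS34 stood higher, and MRPL19, MRPS6 and MRPL42 lower, in every KJ-PYR-9 library than in any VEH library.

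The direction of the change followed the base composition of the transcripts. GC content was that of the longest annotated transcript of each gene and ran from 33.5% to 71.9% over the members. At a split of 50%, chosen after the values were seen, 13 of the 32 GC-rich members rose and none fell, whereas 3 of the 45 GC-poor members rose and 11 fell. Of all genes tested, 2856 of 5900 GC-rich ones rose and 134 fell, and 456 of 7146 GC-poor ones rose and 2148 fell. The GC-poor members that rose were MRPL17, MRPL27 and MRPL57. Across the 77 members, Spearman's rho between GC content and the KJ-PYR-9 difference was 0.706, and across 13046 genes tested it was 0.721. Genes are not independent replicates, and they share the same 6 libraries. Members were therefore ordered by GC content much as other genes were.

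The coding sequences of 3 genes that rose and 3 that fell show how composition varied. Their first 90 bases are given, with the start codon in capitals, because the genes differ in GC content over the whole coding sequence but not always in its first bases. Sequences were read from GENCODE transcripts of GRCh38, positions 1 to 90 of the coding sequence.
MRPL41: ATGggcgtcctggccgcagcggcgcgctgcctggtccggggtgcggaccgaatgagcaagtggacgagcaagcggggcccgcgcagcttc
MRPL55: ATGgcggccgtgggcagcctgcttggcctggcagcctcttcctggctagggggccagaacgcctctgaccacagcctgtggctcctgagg
MRPS34: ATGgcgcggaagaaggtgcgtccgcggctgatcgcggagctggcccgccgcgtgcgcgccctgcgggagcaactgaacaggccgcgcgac
MRPL19: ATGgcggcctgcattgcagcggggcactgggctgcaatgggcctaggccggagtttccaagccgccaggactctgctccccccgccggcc
MRPL50: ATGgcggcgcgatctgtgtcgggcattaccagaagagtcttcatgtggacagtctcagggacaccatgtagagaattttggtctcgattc
MRPS10: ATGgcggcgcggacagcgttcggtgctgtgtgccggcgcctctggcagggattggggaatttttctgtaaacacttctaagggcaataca
MRPL41 (chr9:137551879-137552555) and MRPS34 (chr16:1771895-1773134) rose with KJ-PYR-9. GC made up 73.3% and 74.4% of the bases shown and 65.7% and 66.2% of their whole coding sequences. MRPL50 (chr9:101387633-101398618) and MRPS10 (chr6:42206807-42217861) fell, with 51.1% and 56.7% in the bases shown and 43.7% and 41.8% in the whole coding sequences. MRPL55 (chr1:228106685-228109299), which rose, had 68.9% in the bases shown and 65.2% in the whole, and MRPL19 (chr2:75646783-75662206), which fell, had 71.1% and 47.1%. The start of MRPL19 was thus richer in GC than that of MRPL55, and its whole coding sequence poorer.

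**Figure D3:**
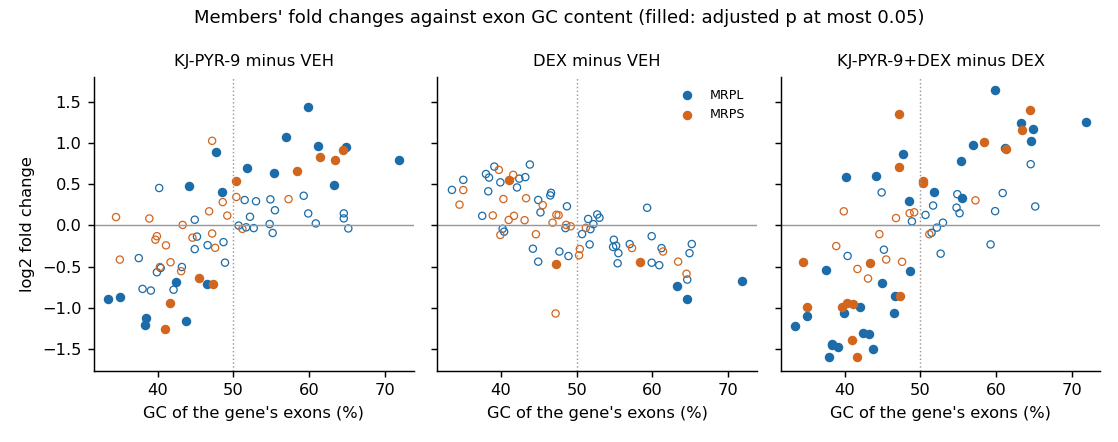
Log2 fold change of each member (vertical axis) against the GC content of its longest transcript in percent (horizontal axis, labelled as exon GC) in 3 comparisons. Colours give MRPL and MRPS symbols, filled points are called, and the dotted line marks 50%. The points rise to the right with KJ-PYR-9 (rho 0.706 without and 0.765 with DEX) and fall to the right with DEX (rho -0.735).

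The same order could be seen library by library. For each library the median log2 level of GC-poor members, relative to VEH, was subtracted from that of GC-rich members. The difference lay between -0.11 and 0.15 in VEH and between -0.75 and -0.20 in DEX. It lay between 0.64 and 0.69 in KJ-PYR-9 and between 0.40 and 0.77 in KJ-PYR-9+DEX. Over all genes tested the corresponding ranges were -0.10 to 0.15, -0.92 to -0.27, 0.73 to 1.0 and 0.56 to 1.23. Farthest from zero in their groups were DEX 1 and KJ-PYR-9+DEX 3, the libraries with 26.04% and 8.722% of unnamed reads. DEX 3, with 2.071% of unnamed reads, lay farther from DEX 2 (-0.20 against -0.52) than DEX 1 did (-0.75). The KJ-PYR-9 libraries with 3.098% and 1.761% of unnamed reads stood at 0.64 and 0.67, and the one with 5.445% at 0.69. Over all genes tested the same libraries stood at 0.730, 0.791 and 0.999, so the one with 5.445% was the highest of its group. A part of unnamed reads in this was not tested.

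**Figure D4:**
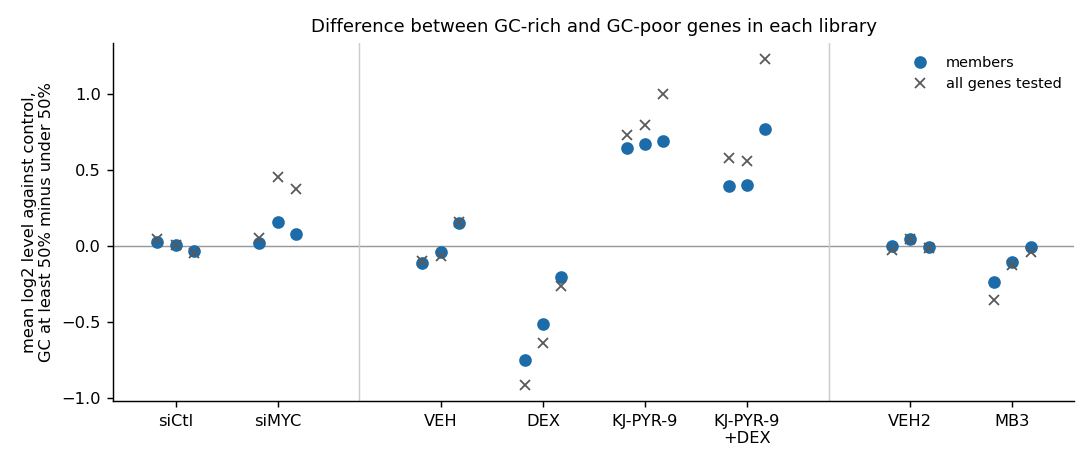
Median log2 level relative to the experiment's control of genes with at least 50% GC minus that of genes under 50% (vertical axis, whose label reads mean). Values are for the members (circles) and all genes tested (crosses) in each of the 24 libraries, by group. In the inhibitor experiment circles and crosses move together, below zero in DEX and above it in both KJ-PYR-9 groups. In siMYC 2 and siMYC 3 the circles (0.155 and 0.078) stand well under the crosses (0.451 and 0.375).

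Removing the trends over GC content and exon length from each library left 18 calls for KJ-PYR-9 against VEH, 12 higher and 6 lower, against 23.1% of all genes (12.3% higher and 10.7% lower). Of the 16 members that rose, 7 kept their call: MRPL55 (log2 0.84 after removal), MRPL17 (0.86), MRPL27 (0.65), MRPL43 (0.55), MRPL10 (0.47), MRPS11 (0.38) and MRPL57 (0.33). Of the 11 that fell, 5 kept it: MRPL33 (-1.07), MRPS17 (-0.71), MRPL15 (-0.66), MRPL19 (-0.60) and MRPS9 (-0.53). The other 9 members that rose, MRPL2, MRPL4, MRPL23, MRPL28, MRPL41, MRPS2, MRPS12, MRPS26 and MRPS34, were not called after removal and had log2 differences between -0.24 (MRPL28) and 0.31 (MRPL23). Of the falls, MRPS6 (-0.83), MRPS10 (-0.55), MRPL42 (-0.54), MRPL3 (-0.35), MRPL50 (-0.09) and MRPL13 (-0.02) were not called after removal. With the replicate block in the same fit 7 of the 16 rises and 8 of the 11 falls kept their calls, MRPL42, MRPL3 and MRPS10 among the latter. MRPL33 and MRPS17 thus kept nearly their full difference.

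The comparison of KJ-PYR-9+DEX with DEX gave a second reading of KJ-PYR-9 in libraries that the first did not use. The readings are not independent. Both came from the same fit, with a shared estimate of each gene's spread, and same-numbered libraries deviated together across groups (correlations 0.13 to 0.524). Here 47 of 77 members were called, 22 higher and 25 lower, against 68.7% of all genes tested (33.6% higher and 35.1% lower). All 16 members that rose without DEX also rose with it, which was 72.7% of the 22. Of the 11 that fell without DEX, 10 also fell with it (90.9% of the first list and 40% of the second), and the exception was MRPS9. Over all genes tested the shared calls were 72.6% of the first list and 54.9% of the second for rises, and 76% and 37.8% for falls. Across the 77 members the 2 sets of log2 differences had a Pearson correlation of 0.912, and across 13616 genes 0.489. This is a description across genes that share GC content as a common property.

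MRPL55 was again the highest riser, with 244, 293 and 343 in DEX and 736, 748 and 1358 in KJ-PYR-9+DEX (log2 1.64, SE 0.233, limma adjusted p = 0.000253). The third KJ-PYR-9+DEX library stood far above the other two, and all were above DEX. MRPS34 had 445, 723 and 657 in DEX and 1294, 1569 and 1920 in KJ-PYR-9+DEX (log2 1.4, SE 0.196, limma adjusted p = 0.000241). MRPL41 and MRPL28 rose by 1.25 each, MRPL4 by 1.17 and MRPS26 by 1.16. MRPS35, a mitochondria-specific protein of the small subunit, had 653, 680 and 540 in DEX and 309, 373 and 287 in KJ-PYR-9+DEX (log2 -0.95, SE 0.143, limma adjusted p = 0.000321), so that all treated libraries lay lower. MRPS10 fell by 1.6. MRPL33 and MRPL19, named here because they fell without DEX too, fell by 1.5 and 1.44. MRPL44, an RNA-binding protein of the large subunit, fell by 0.70. MRPL12 (0.74, limma adjusted p = 0.0713), MRPL36 (0.23), MRPS18A (0.30), MRPS18B (-0.11) and MRPS18C (-0.25) were not called. After removal of the GC and length trends 32 members were called, 19 higher and 13 lower, against 32.6% of all genes (17.2% higher and 15.3% lower). Of the 22 rises 9 kept their call and of the 25 falls 8 did. MRPL55, MRPS34, MRPS10 and MRPL33 kept theirs, and MRPL41, MRPL28, MRPL4, MRPS26, MRPL19 and MRPL44 did not. MRPS35 turned to 0.01 (limma adjusted p = 0.952). The mesenchymal genes summed to 55366 to 63798 normalized counts in KJ-PYR-9+DEX and to 47815 to 51540 in DEX. Singly they went both ways: 3 of the 7 were called higher and 2 lower, from -1.27 to 0.84 on the log2 scale. VIM and ZEB1 lay lower in every KJ-PYR-9+DEX library than in any DEX library. The luminal genes summed to 450 to 548 and 284 to 416, and the leukocyte genes to 28 to 51 and 24 to 39. The part of these markers in the result was not tested.

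Against VEH instead of DEX, KJ-PYR-9+DEX libraries had 19 members called, 12 higher and 7 lower, against 36.6% of all genes tested (18.4% higher and 18.2% lower), and 41 with the replicate block, against 55.4%. MRPL55 rose by 1.19, MRPL4 by 0.83, MRPS34 by 0.81, MRPL43 by 0.75, MRPS26 by 0.72 and MRPL23 by 0.67, while MRPS6 fell by 1.33, MRPL19 by 1.02 and MRPS17 by 0.73. MRPS6 had 337, 228 and 106 in KJ-PYR-9+DEX, under all 3 vehicle libraries but widely spread. Once the GC and length trends were removed, MRPL43, MRPL46, MRPL55 and MRPS17 kept their calls and the other 15 of the 19 did not, MRPL41 turning to -0.09. With the replicate block in the same fit 8 of the 19 kept them. The count was 4 without VEH 1, 12 without VEH 2 8 without KJ-PYR-9+DEX 3 and 10 without the 3 libraries with over 5% unnamed reads. This comparison shares its vehicle libraries with that of KJ-PYR-9 and its treated libraries with the one just described.

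DEX alone was compared with VEH. Without the block 6 of 77 were called, against 17.5% of all genes tested (9.5% higher and 8.02% lower): MRPS35 rose, and MRPL38, MRPL28, MRPL41, MRPS25 and MRPS12 fell. With the replicate block 32 were called, 13 higher and 19 lower, against 43.5% of all genes. MRPL28, a large subunit protein of bacterial ancestry, had 817, 887 and 847 in VEH and 381, 592 and 580 in DEX (log2 -0.74, SE 0.172, limma adjusted p = 0.0172). MRPL41 had 1193, 1696 and 1550 in VEH and 747, 982 and 1037 in DEX (log2 -0.68, SE 0.185, limma adjusted p = 0.0313). In both genes DEX 1 was the lowest library, and the groups did not overlap. MRPL38, at 67.4, 79.8 and 76.6 in VEH and 30.5, 43.7 and 47.0 in DEX, fell by 0.89, MRPS25 by 0.47 and MRPS12 by 0.44. MRPS35, with 386, 440 and 442 in VEH, rose by 0.56. No member was called without VEH 2 or VEH 3, 1 without DEX 1, 2 without DEX 2 and 12 without DEX 3. The members' differences fell with GC content (Spearman's rho -0.735 across 77 members, -0.676 across 13046 genes), the reverse of the order with KJ-PYR-9. After removal of the GC and length trends MRPS25 alone of the 6 kept its call, and with the replicate block in the same fit MRPS25 and MRPL28 did.

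The interaction asked whether the KJ-PYR-9 difference changed when DEX was present. It was called for 2 of 77 members, MRPS25 and MRPS35, against 16.8% of all genes tested, and for 13 with the replicate block, against 32.3%. MRPS25 had 589, 617 and 663 in VEH, 381, 465 and 506 in DEX, 536, 598 and 613 in KJ-PYR-9 and 696, 673 and 841 in KJ-PYR-9+DEX. The KJ-PYR-9 libraries overlapped VEH, whereas every KJ-PYR-9+DEX library lay above every DEX library, and the interaction was 0.81 (SE 0.201, limma adjusted p = 0.02). MRPS35 had 326, 369 and 378 in KJ-PYR-9, a little under its VEH values, and its interaction was -0.71 (SE 0.203, limma adjusted p = 0.0363). With the GC and length trends removed, the interaction of MRPS25 was 0.95 (limma adjusted p = 0.007) and that of MRPS35 -0.18 (limma adjusted p = 0.572). The count was 0 without VEH 3, KJ-PYR-9 1 or the libraries with over 5% unnamed reads, 1 without any one of VEH 1, VEH 2, DEX 1, DEX 2, KJ-PYR-9 2, KJ-PYR-9 3 and KJ-PYR-9+DEX 3, 4 without KJ-PYR-9+DEX 2 and 7 without DEX 3.

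**Figure D5:**
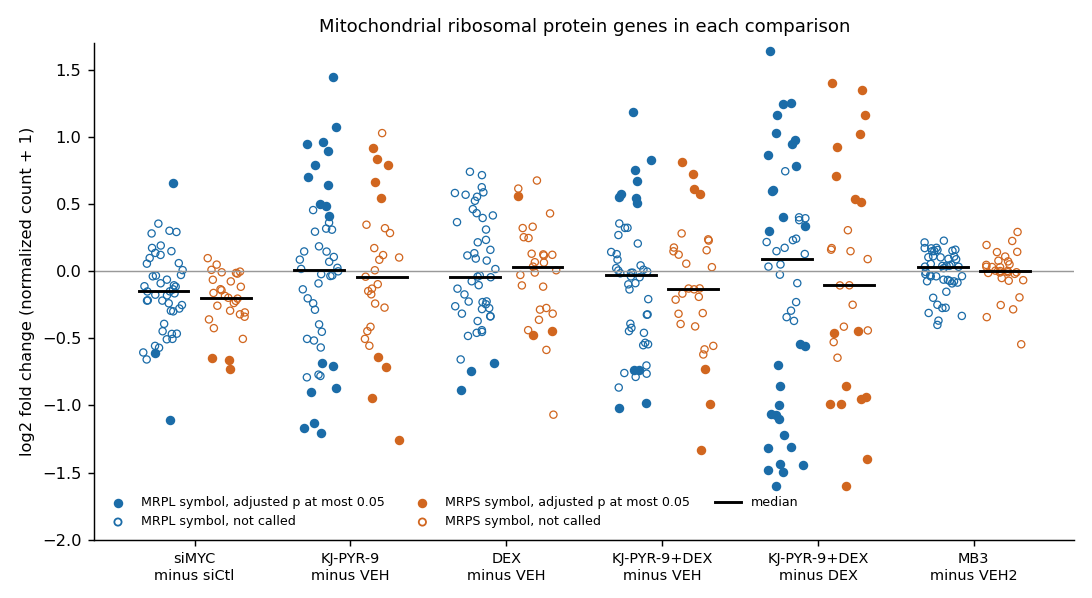
Log2 fold change (vertical axis) of every member in 6 comparisons, 1 point per gene, MRPL and MRPS symbols side by side; filled points have a limma adjusted p of at most 0.05 and bars mark medians. Medians are lowest after MYC knockdown (MRPL -0.15, MRPS -0.20), followed by MRPS with KJ-PYR-9+DEX against VEH (-0.13) and against DEX (-0.11). The widest spread is that of KJ-PYR-9+DEX against DEX, and no point is filled for MB3.

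MB-3 gave no called member. None of 75 passed the threshold with limma, against 0.0597% of all genes tested, and 11 had an unadjusted p under 0.05. edgeR's quasi-likelihood test and DESeq2 on the recovered reads called none either, with 13 and 12 under the unadjusted limit. Differences ran from -0.55 (MRPS24) to 0.29 (MRPS36), a far narrower range than in the other experiments. MRPS36 had 235, 230 and 266 in VEH2 and 370, 283 and 252 in MB3. In both genes MB3 1, the library whose title reads MED3, stood farthest from VEH2. MRPS24, which encodes the mitochondrial counterpart of bacterial S3, had 204, 257 and 207 in VEH2 and 110, 169 and 188 in MB3 (limma adjusted p = 0.322), and MB3 1 was the lowest. MRPL55 had 378, 324 and 358 in VEH2 and 273, 244 and 285 in MB3 (log2 -0.40, SE 0.092, limma adjusted p = 0.233). Its groups did not overlap, but the difference did not pass the threshold. MRPL34 and MRPL57 had differences of -0.37 and -0.28, and MRPS18A and MRPS2 of -0.28 and -0.25. KAT2A, which encodes the target of MB-3, had 415, 509 and 524 in VEH2 and 348, 454 and 465 in MB3 (limma adjusted p = 0.526).

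Large and small subunit genes were set beside each other, with 16.1% of all genes called after knockdown, 42.9% with KJ-PYR-9 against VEH and 68.7% with KJ-PYR-9+DEX against DEX. After MYC knockdown 3 of 48 MRPL and 3 of 29 MRPS members were called, with medians of -0.15 and -0.20. With KJ-PYR-9 against VEH 18 of 48 MRPL members were called (11 higher, 7 lower) and 9 of 29 MRPS members (5 higher, 4 lower), with medians of 0.01 and -0.04. With KJ-PYR-9+DEX against DEX the counts were 30 of 48 and 17 of 29 and the medians 0.09 and -0.11. The subunits differ in composition: 24 of 48 MRPL members but 8 of 29 MRPS members had at least 50% GC. Within the GC-rich members 8 of 24 MRPL and 5 of 8 MRPS genes rose with KJ-PYR-9, and within the GC-poor members 7 of 24 MRPL and 4 of 21 MRPS genes fell. Of all genes 2856 of 5900 GC-rich ones rose and 2148 of 7146 GC-poor ones fell. The MRPL median minus the MRPS median was 0.05 with KJ-PYR-9 against VEH and 0.20 with KJ-PYR-9+DEX against DEX, and after removal of the GC and length trends it was -0.28 and -0.35. The sign of the subunit difference thus turned with that correction, and neither sign was tested.

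Grouped by ancestry, 44 members have a bacterial counterpart and 29 are mitochondria-specific. With KJ-PYR-9 against VEH 10 of the former rose and 9 fell, and 6 of the latter rose and 2 fell, against 25.4% of all genes higher and 17.5% lower. After MYC knockdown 3 members of each were called. Of the 3 paralogs of bacterial S18, MRPS18A, MRPS18B and MRPS18C, none was called in any of the comparisons, and their differences with KJ-PYR-9 against VEH were 0.32, -0.04 and 0.08.

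The genes around the ribosome also went both ways with KJ-PYR-9 against VEH, where 25.4% of all genes were called higher and 17.5% lower. Of 15 genes for mitochondrial DNA maintenance and transcription, 4 rose and 7 fell. The mitochondrial RNA polymerase POLRMT rose by 1.24, while the termination factor MTERF1 fell by 1.29 and PNPT1 by 0.83. Of 28 assembly and rRNA modification genes 8 rose and 2 fell, with rises of 1.02 for MPV17L2, 0.94 for the helicase DHX30 and 0.56 for the GTPase NOA1. Of 17 translation factors 2 rose, the elongation factor TUFM by 0.87 and the deformylase PDF by 0.94, and 4 fell, MTRES1 by 0.99. Of 19 aminoacyl-tRNA synthetase genes 3 rose, among them SARS2 by 0.75 and FARS2 by 0.59, and 2 fell, among them RARS2 by 0.73. GADD45GIP1, a ribosomal protein with another symbol, rose by 0.73. Of 9 regulators 4 rose, including ESRRA by 0.69 and PPRC1 by 0.69. After removal of the GC and length trends TUFM, POLRMT, MTERF1 and PNPT1 kept their calls, and DHX30, NOA1, MPV17L2, PDF, FARS2, SARS2, RARS2, GADD45GIP1, ESRRA and PPRC1 did not.

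With KJ-PYR-9+DEX against DEX, 33.6% of all genes were called higher and 35.1% lower. Of 28 assembly genes 16 rose and 6 fell. GTPBP10, a GTPase of large subunit assembly, fell by 1.79, while RBFA rose by 0.93. Of 17 translation factors 3 rose and 11 fell, the elongation factor GFM1 by 0.77 and LRPPRC, which stabilises mitochondrial messengers, by 0.80. Of 19 synthetase genes 8 rose and 7 fell, RARS2 by 1.33. Among genes of mitochondrial DNA the polymerase POLG rose by 1.18 and TWNK by 0.98, 5 of 15 rising and 7 falling. Of 9 regulators 5 rose and 3 fell. PPARGC1B and YY1 rose by 1.03 and 0.79, and MYC was among those that fell. After removal of the GC and length trends RBFA, RARS2, TWNK, POLG, PPARGC1B and YY1 kept their calls, and GTPBP10, LRPPRC and GFM1 did not.

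Promoters were read from RefSeq (GRCh38.p14), from 250 bases before to 50 after each gene's start, for 69 of 77 members. These windows were searched on both strands for the core of 4 motifs known from promoters of mitochondrial genes or of MYC targets: CCGGAAG of ETS factors such as GABP, the palindrome of NRF1, AAGATGGCG of YY1 and CACGTG, the E-box that MYC and MAX bind. The ETS and YY1 letters can overlap. The ETS core stood in 28 of 69 member promoters (40.6%), against 17.3% of 12484 promoters of genes in the inhibitor table and 10.3% of all 35116 promoters. The YY1 core stood in 13 (18.8%, against 3.45% and 1.75%), the NRF1 core in 8 (11.6%, against 10.4% and 5.78%) and the E-box in 7 (10.1%, against 9.56% and 7.26%). MRPL and MRPS promoters held the ETS core in 16 of 41 and 12 of 28 cases. Of the members with a promoter, 6 of 13 that rose with KJ-PYR-9 and 3 of 9 that fell held the ETS core, and none of either held the E-box. The YY1 core stood in 0 of the 13 and 3 of the 9, and the NRF1 core in 2 and 1. These differences were not tested. A match is a run of letters and not a measured site of binding.

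The 60 bases before the start of 3 genes that rose with KJ-PYR-9 (MRPL43, MRPS34, MRPS26) and 3 that fell (MRPS10, MRPL33, MRPL3) are shown because both kinds carried the ETS core in the same stretch; capitals mark it, as CCGGAAG or its complement CTTCCGG.
MRPL43: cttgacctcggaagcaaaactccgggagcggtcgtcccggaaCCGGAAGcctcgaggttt
MRPS34: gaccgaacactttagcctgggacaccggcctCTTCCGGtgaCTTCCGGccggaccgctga
MRPS26: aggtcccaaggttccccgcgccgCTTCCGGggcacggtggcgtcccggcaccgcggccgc
MRPS10: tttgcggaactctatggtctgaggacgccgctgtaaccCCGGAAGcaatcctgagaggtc
MRPL33: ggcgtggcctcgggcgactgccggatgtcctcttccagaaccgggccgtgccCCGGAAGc
MRPL3: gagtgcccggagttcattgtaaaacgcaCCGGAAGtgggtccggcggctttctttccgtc
These stretches lie at chr10:100987498-100987557 on the minus strand for MRPL43, chr16:1773135-1773194 on the minus strand for MRPS34, chr20:3045992-3046051 on the plus strand for MRPS26, chr6:42217862-42217921 on the minus strand for MRPS10, chr2:27771659-27771718 on the plus strand for MRPL33 and chr3:131502972-131503031 on the minus strand for MRPL3. They are given 5′ to 3′ on the gene's strand.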

How the data were processed

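RNA of BT549 cells was depleted of ribosomal RNA and sequenced in 24 libraries. The deposited files gave 1 normalized count per gene and library, a scaled signal: per the submitters' processing notes, reads were counted with featureCounts on GRCh38/hg38 and scaled with DESeq2. Aligner, annotation, strandedness and versions are not given in the sources used here, so reads of overlapping or near-identical genes cannot be separated. The values were whole multiples of a step in each library (100% within a tolerance of 1e-04), so reads could be recovered. edgeR on these called 2922 genes in the knockdown, 7061 for KJ-PYR-9 against VEH, 2918 for DEX against VEH, 5707 and 9126 for KJ-PYR-9+DEX against VEH and DEX, and 16 for MB-3.

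Each experiment was fitted with limma 3.58.1 (R 4.3.3) on log2(value + 1) over genes with a mean of at least 10, which understates changes of low genes. The 12 libraries of the inhibitor experiment entered 1 fit. P-values were two-sided and adjusted by Benjamini-Hochberg over 14788, 13616 and 10048 genes, with a threshold of 0.05. edgeR 4.0.16 (quasi-likelihood test) and DESeq2 1.42.0 on recovered reads, other scalings, filters and pseudocounts, the replicate block, removal of GC and length trends and leaving out each library were alternatives. The fits were tested on simulated data. Features with no gene name, up to 26.04% of a library, were left out.

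Replicate numbers come from the titles. Deviations from group means correlated between same-numbered libraries at 0.13 to 0.524 in the inhibitor experiment and 0.208 to 0.389 in the MB-3 experiment. In the knockdown they correlated at -0.346 to -0.02, so the numbers did not pair its libraries. The main fit, which gave the differences, SE and adjusted p of named genes, did not use any pairing. Only the fits with the replicate block did. Named members were, per comparison and symbol type, up to 6 called members with the smallest adjusted p and no overlap (the 3 with the smallest p where fewer than 3 were called), 7 members named throughout (MRPL12, MRPL36, MRPL44, MRPS12, MRPS18A, MRPS18B and MRPS18C) and up to 3 called genes per list. The members and lists were chosen with earlier results of these data known. P-values measure the spread between these cultures of 1 cell line.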

Additional observations from a re-analysis of the deposited data

Results flagged for a closer look

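The KJ-PYR-9 difference of MRPS25 with DEX minus that without DEX was 0.809 on the log2 scale, tested by the interaction term (limma adjusted p = 0.02). For MRPS35 the same interaction was -0.708 (limma adjusted p = 0.0363). After removal of the GC and length trends MRPS25 stood at 0.95 (limma adjusted p = 0.007) and MRPS35 at -0.18 (limma adjusted p = 0.572).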

How the results depend on the processing

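With the replicate number as a block, calls numbered 0 in the knockdown (3.18% of all genes), where the numbers did not pair the libraries. They numbered 46 for KJ-PYR-9 against VEH (58% of all genes) and 32 for DEX (43.5%). KJ-PYR-9+DEX against VEH had 41 (55.4%) and the interaction 13 (32.3%). KJ-PYR-9 against VEH had 33 with the GC and length trends removed as well. In the knockdown, a mean of at least 50, TMM and DESeq2 gave 10, 12 and 20 calls. There edgeR and removal of the GC and length trends gave 17 and 11, against 19.8% and 19.5% of all genes. For DEX, quantile scaling, edgeR and DESeq2 gave 15, 10 and 14, with 21.4% of all genes called by edgeR. Trend removal with the replicate block gave 12, and leaving out libraries with over 5% unnamed reads 1. For KJ-PYR-9+DEX against VEH, no filter, DESeq2, trend removal and leaving out those libraries gave 12, 30, 7 and 10, with 12.4% of all genes called after trend removal. For the interaction, no filter gave 1, a mean of at least 50, edgeR and DESeq2 4 each, trend removal 7 (12 with the block) and leaving out those libraries 0. There edgeR called 17.7% of all genes and trend removal 17.5%. Shares over all genes are not given for the other settings or for leaving out libraries. The interaction's member median of -0.082 turned to 0.092 with quantile scaling and 0.113 with trend removal, with or without the block.

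Trend removal turned the MRPL minus MRPS median to -0.033 in the knockdown, -0.283 for KJ-PYR-9, 0.139 for DEX, -0.248 and -0.348 for KJ-PYR-9+DEX against VEH and DEX, and moved it to -0.103 for the interaction, the same with the block. It stood at -0.035, -0.049 and -0.053 for DEX with quantile scaling, edgeR and DESeq2, at 0.055 for KJ-PYR-9+DEX against VEH with quantile scaling, and at 0.006 for MB-3 with subunits by structure. Without the libraries rich in unnamed reads it was -0.034, 0.046 and 0.103 for DEX and for KJ-PYR-9+DEX against VEH and DEX. Trend removal also turned MRPL41 to -0.089 (KJ-PYR-9+DEX against VEH) and MRPS35 to 0.013 (against DEX), with or without the block. The cause was not tested.

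Leaving out 1 library at a time gave 0 to 9 calls in the knockdown, 16 to 23 for KJ-PYR-9, 0 to 12 for DEX, 4 to 25 and 40 to 48 for KJ-PYR-9+DEX against VEH and DEX, 0 to 7 for the interaction and 0 for MB-3. Member medians ran from -0.267 to -0.061, -0.093 to 0.099, -0.065 to 0.031, -0.170 to 0.042, -0.078 to 0.114, -0.133 to 0.031 and -0.005 to 0.028, in that order. MRPL minus MRPS medians ran from 0.016 to 0.060, 0.031 to 0.086, -0.133 to 0.010, 0.025 to 0.114, 0.129 to 0.278, -0.097 to 0.098 and -0.022 to 0.011. Of 1808 values of named genes under alternatives, 1603 kept direction and side of the threshold, 156 lost the call, 45 gained one and 4 turned. DEX 1, the shallowest library, limits the comparisons with DEX. With 3 libraries a group, small differences were not detectable.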
